A study of Mus musculus and Homo sapiens with 20 samples.

Results

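Mouse hepatocytes carrying a floxed Ahr gene were compared after an adenovirus labelled Ad_Cre, 3 libraries, and after one labelled Ad_Cont, 3 libraries, all of them riboflavin-sufficient controls. These 6 ATAC-seq libraries, chosen by their titles, were part of 20 in the series. ATAC-seq counts insertions of the transposase Tn5, so tags pile up where chromatin is open. The floxed allele (AhR_flox) and an adenovirus were common to both groups, so neither group was untreated, and a further 6 libraries, 3 with each virus, carried the label B2_minus for vitamin B2 (riboflavin) deficiency. All hepatocyte libraries were labelled 4 weeks, without saying what was timed, and were made from 75000 cultured cells each. The promoter driving Cre, the virus dose, the age and number of animals, and the part of Ahr between the loxP sites were not given in the sources used here. Nor do the labels say whether replicates came from separate animals or cultures, and p-values therefore reflect the spread among these libraries alone, part of which may be technical.

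The aryl hydrocarbon receptor AhR is a transcription factor that binds small molecules, moves to the nucleus, pairs with ARNT and binds a short DNA core, GCGTG, or CACGC when read on the opposite strand. In liver it is best known for inducing the cytochrome P450 enzymes Cyp1a1, Cyp1a2 and Cyp1b1, the conjugation enzymes Nqo1 and Ugt1a6a, and its own feedback inhibitors Ahrr and Tiparp. Cre recombinase cuts out DNA lying between loxP sites, and the comparison therefore asks how chromatin differed between cells given Cre and cells given the control virus when riboflavin was not withheld.

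Promoter sequences are shown for the starts of 2 transcripts that lay in regions called lower with Ad_Cre, Ybx3 and Gm38388, and for 3 textbook AhR targets, Cyp1a1, Tiparp and Ahrr. Each is the 250 bases before the annotated start, 5′ to 3′, from RefSeq on GRCm38.p6 (the assembly of mm10), with every GCGTG or CACGC in capitals.
Ybx3, chr6:131388451-131388700, minus strand: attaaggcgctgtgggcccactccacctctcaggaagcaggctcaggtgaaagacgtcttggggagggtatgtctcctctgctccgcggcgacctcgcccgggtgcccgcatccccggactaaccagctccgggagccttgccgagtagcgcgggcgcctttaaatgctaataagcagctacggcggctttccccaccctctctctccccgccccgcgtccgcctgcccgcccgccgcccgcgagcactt
Gm38388, chr1:60599471-60599720, minus strand: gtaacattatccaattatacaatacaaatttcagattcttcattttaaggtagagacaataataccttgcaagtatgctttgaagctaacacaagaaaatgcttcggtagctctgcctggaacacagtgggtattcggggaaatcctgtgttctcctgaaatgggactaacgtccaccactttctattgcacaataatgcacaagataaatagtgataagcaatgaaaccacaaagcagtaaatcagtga
Cyp1a1, chr9:57697363-57697612, plus strand: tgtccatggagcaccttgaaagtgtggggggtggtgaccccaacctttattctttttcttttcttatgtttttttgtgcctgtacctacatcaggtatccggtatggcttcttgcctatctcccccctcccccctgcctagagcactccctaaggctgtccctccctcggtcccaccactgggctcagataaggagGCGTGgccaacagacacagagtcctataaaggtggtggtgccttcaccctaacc
Tiparp, chr3:65528197-65528446, plus strand: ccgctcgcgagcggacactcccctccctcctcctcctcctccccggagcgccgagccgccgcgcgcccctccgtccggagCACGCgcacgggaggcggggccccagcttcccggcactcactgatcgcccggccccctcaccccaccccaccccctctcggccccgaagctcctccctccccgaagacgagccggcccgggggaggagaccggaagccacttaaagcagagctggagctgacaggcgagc
Ahrr, chr13:74292332-74292581, minus strand: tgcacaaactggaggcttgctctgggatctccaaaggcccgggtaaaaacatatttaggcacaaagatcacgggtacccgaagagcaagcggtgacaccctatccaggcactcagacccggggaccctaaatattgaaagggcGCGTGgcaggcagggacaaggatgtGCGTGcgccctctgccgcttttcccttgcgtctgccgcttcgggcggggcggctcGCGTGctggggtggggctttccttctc
Over 300 bases, which add the 50 after the start, Ybx3 and Gm38388 held 0 matches, Cyp1a1 and Tiparp 1 each and Ahrr 3. Of the other target genes whose windows were searched, Cyp1b1 held 1 match, and Nqo1 and Cyp1a2 held 0. Among all 32851 promoter windows of that length 32.4% held at least 1 match, and no match says only that these letters are not in the window. Of 10681 tested regions that held a transcription start, the 5571 with a match had a median log2 fold change of -0.01 and the 5110 without a match had -0.02. Regions lower with Ad_Cre at an unadjusted p under 0.05 made up 3.73% of those with a match and 3.80% of those without, and regions higher made up 2.05% and 2.56%. Regions with a match were also stronger, with a median of 61.5 scaled tags against 49.2.

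The libraries differed in how much was listed as well as in where. After peaks outside the autosomes and chromosome X were left out (0.138% to 0.158% of each list), the Ad_Cre lists held 254160, 278590 and 281141 peaks against 200698, 265511 and 226376 with Ad_Cont, and 4343680 to 5557678 tags against 3897632 to 4799607. Neither difference passed an exact two-sided permutation test (p = 0.2 for each, n = 3 per group, where the smallest possible p is 0.1). Peaks of the 12 hepatocyte libraries merged into 642948 regions, of which 101575 had a peak in every library and were tested. Those tested regions held 65.0% ± 0.759 of listed tags with Ad_Cre and 69.7% ± 3.67 with Ad_Cont (SD, n = 3; exact permutation p = 0.1). A library's value in a region is its highest peak count there, and "scaled tags" are these counts after TMM scaling to an average library. Each list ended at a lowest count of 7 or 8 tags in these 6 libraries, so an unlisted site was not measured at 0. It may have been below that count, or a peak beside it may have been listed instead. Sequencing depth is unknown.

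Chromatin at the Ahr locus, the targeted gene (mm10 chr12:35497979-35534989), held listed peaks in every library of both groups. The strongest region there, chr12:35534948-35535212, overlaps the gene's end at the higher coordinate. It had 71.8, 70.7 and 76.7 scaled tags in the Ad_Cont libraries and 70.6, 75.6 and 66.6 in the Ad_Cre libraries, so the groups overlapped (log2 fold change -0.05, SE 0.094; edgeR adjusted p = 0.951). In the riboflavin-deficient libraries the same region had 77.9 to 78.9 scaled tags with Ad_Cont and 65.3 to 69.9 with Ad_Cre, a log2 fold change of -0.22 (SE 0.092; unadjusted p = 0.0167). The test of the difference between these effects gave an unadjusted p of 0.18. Without the position of the floxed segment, no region here checks whether Ahr was cut, and peak counts cannot show a loss in part of the cells.

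Within the gene or 10 kb of it lay 42 merged regions, 32 of them inside the gene, and 7 had a peak in all 12 libraries. Means were lower with Ad_Cre in 6 of these 7, none passed the adjusted threshold of 0.05, and 1 had an unadjusted p under 0.05. That one, chr12:35534002-35534791, had 27.6, 41.8 and 21.6 scaled tags with Ad_Cont and 24.3, 23.9 and 21.9 with Ad_Cre (log2 fold change -0.40, SE 0.189; edgeR adjusted p = 0.599). A single Ad_Cont library was well above the rest, and the other Ad_Cont libraries lay on either side of the Ad_Cre values. The remaining tested regions inside Ahr had log2 fold changes from -0.25 to 0.15.

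**Figure D1:**
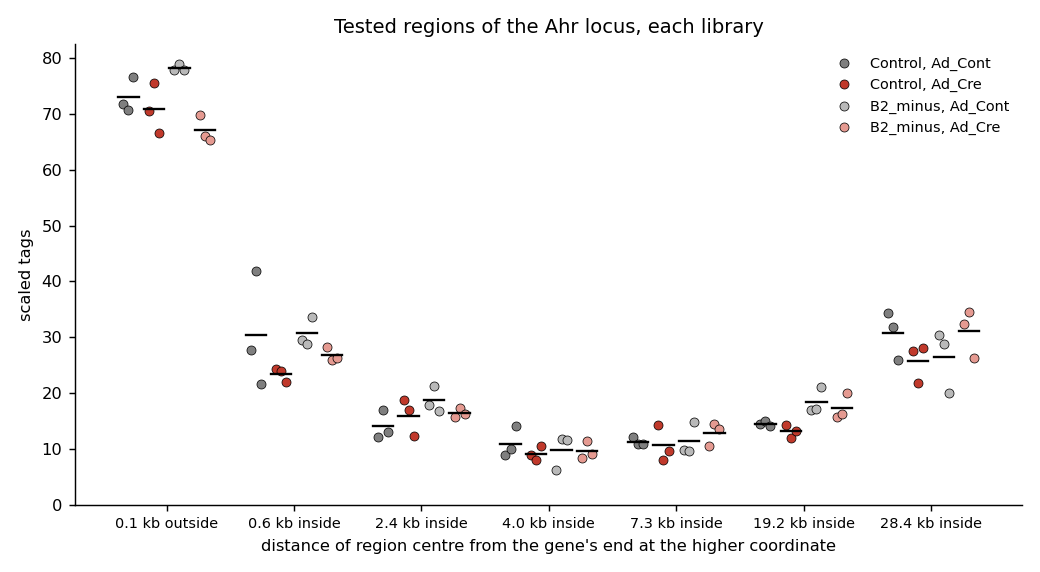
Scaled tags of each library (points) and group means (bars) in the 7 tested regions of the Ahr locus, ordered by distance in kb from the gene's end at the higher coordinate. Colours mark the 4 groups. The strongest region, which overlaps that end and has its centre 0.091 kb beyond it, had 66.6 to 76.7 scaled tags in all 6 riboflavin-sufficient libraries, with both groups interleaved.

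A weak peak inside the gene, picked out after its values were seen, was listed less often with Ad_Cre. At chr12:35531670-35532019 it had 10 and 11 tags in 2 Ad_Cont libraries and 9 tags in 1 Ad_Cre library, and was unlisted in the others. Among riboflavin-deficient libraries it was listed in all 3 with Ad_Cont, at 12, 10 and 11 tags, and in 0 of 3 with Ad_Cre. These counts are just above the lowest listed count of 6 to 8 over the 12 libraries, the region did not have a peak in every library, and it was not tested.

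Across the genome few regions passed the adjusted threshold, which with 3 libraries per group does not show that few differed. Of 101575 tested regions, 2 were called higher and 4 lower with Ad_Cre at an edgeR adjusted p under 0.05, which is 0.00591% of all tested. Those higher lay inside Traf3 and Gabbr2. Those lower lay inside Pml, at the start of Ybx3, at the start of the long non-coding RNA Gm38388, and at a site on chromosome 10 with no protein-coding gene within 50 kb. At an unadjusted p under 0.05 there were 7941 regions (7.82%), 4142 higher (4.08%) and 3799 lower (3.74%). Ad_Cre libraries all lay above all Ad_Cont libraries in 6322 regions (6.22%) and all below them in 6308 (6.21%). The median log2 fold change was 0.00 with an SD of 0.22 across regions, and only 14 regions differed by more than 1 on that scale, each with a mean under 20 scaled tags. How tags were counted at strong sites is not known, and replicates varied less than counting noise, so differences at strong sites may be understated.

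**Figure D2:**
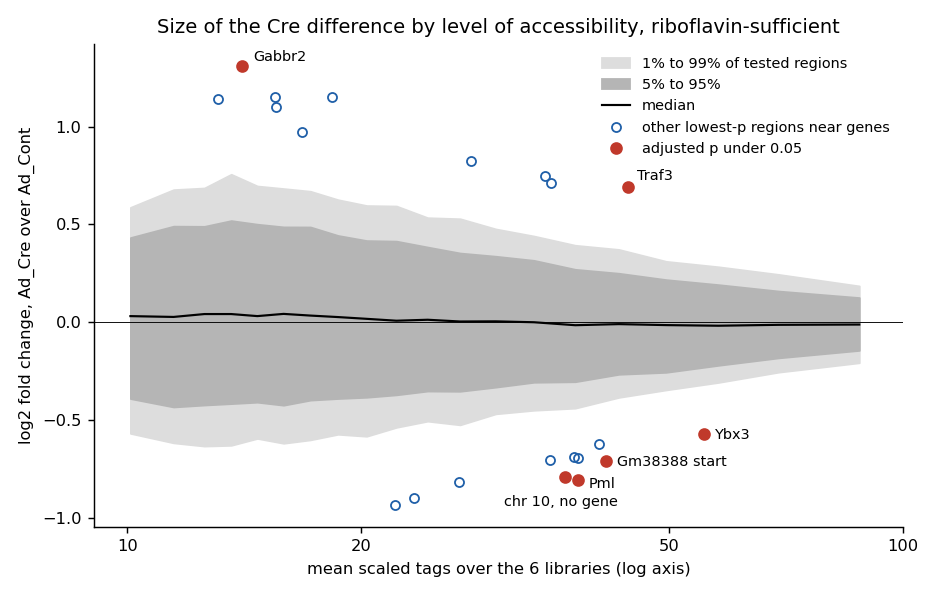
Log2 fold change (Ad_Cre over Ad_Cont, vertical) against the mean scaled tags of the 6 libraries (horizontal, log axis). Shaded bands hold the stated shares of the 101575 tested regions in 20 bins by level, red points are the 6 regions past the adjusted threshold, and open circles are the other named regions with the lowest p near genes. The bands narrow from weak to strong sites, and the called regions lie outside the 1% to 99% band.

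Traf3, an adaptor in signalling by TNF receptors and in interferon induction, held the region with the lowest p, at chr12:111187132-111187404 inside the gene. It had 24.3, 39.8 and 36.7 scaled tags with Ad_Cont and 58.4, 48.7 and 57.0 with Ad_Cre. The lowest Ad_Cre library stood above the highest Ad_Cont library (log2 fold change 0.69, SE 0.134; edgeR adjusted p = 0.0356). In riboflavin-deficient libraries both groups were as high as the Ad_Cre libraries here, at 49.4 to 56.5 with Ad_Cont and 51.1 to 60.3 with Ad_Cre, so among the 4 groups the riboflavin-sufficient Ad_Cont group was the low one. The other 6 tested regions assigned to Traf3 had log2 fold changes from 0.01 to 0.25, and none had an unadjusted p under 0.05.

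Gabbr2 encodes a subunit of the GABA-B receptor, better known from neurons than from liver. Its called region, chr4:46720869-46721161, rose from 7.74, 7.96 and 8.64 scaled tags with Ad_Cont to 17.6, 17.9 and 24.5 with Ad_Cre (log2 fold change 1.31, SE 0.267; edgeR adjusted p = 0.0376). The Ad_Cont values sit at or near the lowest listed count, and lower values could not have been listed, so the fold change of this weak site is limited by the end of the lists. With riboflavin deficiency the values were 11.6 to 16.1 with Ad_Cont and 15.3 to 21.9 with Ad_Cre, and the groups overlapped. Of the other 14 tested regions assigned to Gabbr2, 0 were higher and 1 was lower at an unadjusted p under 0.05, with a median log2 fold change of -0.06.

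Pml, the scaffold protein of PML nuclear bodies, had a lower region inside the gene at chr9:58247417-58247681. Scaled tags were 37.6, 51.8 and 55.1 with Ad_Cont and 35.3, 28.8 and 20.2 with Ad_Cre (log2 fold change -0.81, SE 0.160; edgeR adjusted p = 0.0356). The gap between groups was narrow, since the lowest Ad_Cont library was only just above the highest Ad_Cre library. In riboflavin-deficient libraries the log2 fold change was -0.34 (SE 0.169), with 19.0 to 36.5 scaled tags with Ad_Cre overlapping 34.1 to 38.9 with Ad_Cont. None of the other 6 tested Pml regions had an unadjusted p under 0.05.

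Ybx3, a Y-box protein that binds DNA and RNA, had the strongest of the called regions, at its transcription start (chr6:131388349-131388650). Its promoter is the first sequence printed above. It fell from 66.3, 69.7 and 62.6 scaled tags with Ad_Cont to 46.3, 47.7 and 40.3 with Ad_Cre (log2 fold change -0.57, SE 0.116; edgeR adjusted p = 0.0376). All 3 Ad_Cre libraries were well below all 3 Ad_Cont libraries. With riboflavin deficiency the direction was opposite, 48.4 to 66.1 with Ad_Cont and 57.1 to 71.8 with Ad_Cre (log2 fold change 0.15, SE 0.107). The 2 effects differed by -0.72 (sufficient minus deficient, SE 0.158) on the log2 scale, the smallest adjusted p of any such difference, 0.578, which does not pass the threshold. A neighbouring region 525 bp away inside the gene had 24 to 35 tags with Ad_Cont and 33 to 38 with Ad_Cre (log2 fold change 0.25).

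Gm38388 is annotated as a long non-coding RNA, and its start lies in the called region chr1:60599312-60599641, 32238 bp from Raph1, the nearest protein-coding gene. Scaled tags were 55.3, 53.8 and 45.4 with Ad_Cont and 26.5, 38.8 and 28.9 with Ad_Cre (log2 fold change -0.71, SE 0.141; edgeR adjusted p = 0.0356). Groups did not overlap in either riboflavin condition, with 41.2 to 43.7 against 33.5 to 37.2 under deficiency. A region 66 bp away, with 45 to 46 tags with Ad_Cont and 36 to 58 with Ad_Cre, had a log2 fold change of -0.10 (unadjusted p = 0.45). The remaining called region, chr10:96726164-96726455, lies 103351 bp from Btg1, an antiproliferative gene. It had 56.4, 38.8 and 45.4 scaled tags with Ad_Cont and 22.1, 27.8 and 29.8 with Ad_Cre (log2 fold change -0.79, SE 0.155; edgeR adjusted p = 0.0356), and again the groups did not overlap in either riboflavin condition.

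**Figure D3:**
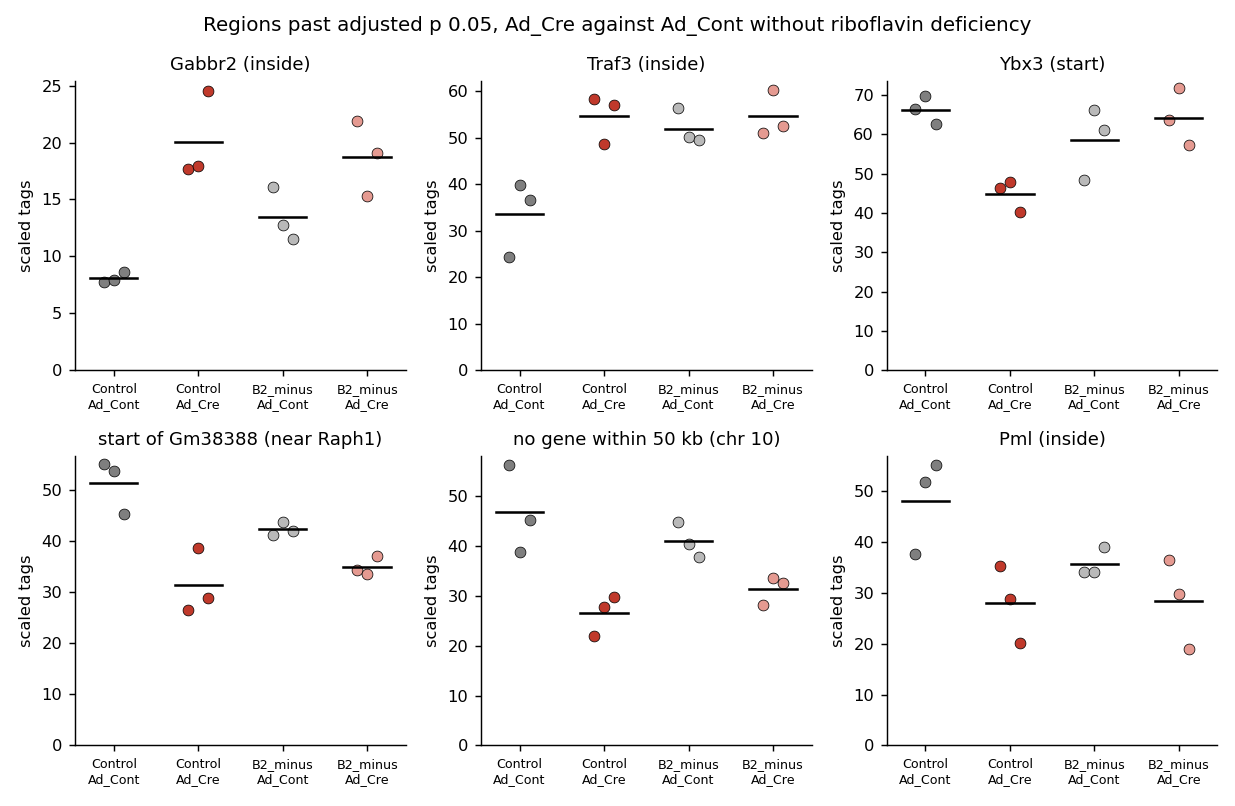
Scaled tags of each of the 12 hepatocyte libraries (points) and group means (bars) in the 6 regions past the adjusted threshold, by virus and riboflavin condition. In the riboflavin-sufficient pair at the left of each panel the groups do not overlap, while at Traf3, Ybx3, Gabbr2 and Pml the riboflavin-deficient pair at the right does.

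These calls were few and moved with single choices. With loess scaling, DESeq2 or edgeR with its variance held at or above Poisson there were 0 calls (7892, 785 and 2737 regions at an unadjusted p under 0.05), and joining peaks up to 500 bp apart turned the Pml log2 fold change to 0.033 and took that at Gm38388 to -0.24 (edgeR adjusted p = 0.626). Gabbr2 kept its size with joined peaks, at 1.18, but not its call (edgeR adjusted p = 0.091). Without Ad_Cre replicate 3 there were 0 calls by edgeR (7154 regions at an unadjusted p under 0.05), and leaving out any of the other 5 libraries kept 1 or 2 of the 6, although the direction of all 6 held in each case.

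Beside the called regions, those with the lowest p near genes did not pass the adjusted threshold but had groups that did not overlap, by the rule that named them. Higher means with Ad_Cre were found inside Kif1c, a kinesin motor (25.4, 26.9 and 24.8 against 44.1, 46.7 and 39.4 scaled tags; edgeR adjusted p = 0.066). Stip1, a co-chaperone linking heat shock proteins, had 18.8, 7.96 and 7.56 scaled tags with Ad_Cont and 27.6, 22.9 and 25.4 with Ad_Cre (adjusted p = 0.066), but with peaks up to 500 bp apart joined the log2 fold change there went from 1.15 to 0.016. The others were inside the ubiquitin ligase gene Rnf217, the phospholipase gene Ddhd1, Crispld2 and the immune receptor gene Cd244a, at the start of the lipid kinase gene Pik3c2b, and 13428 bp from Wipf1, with log2 fold changes from 0.71 to 1.15. Of these 8 regions, 5 had Ad_Cont means under 12 scaled tags, near the lowest listed count.

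Lower means with Ad_Cre were found 20925 bp from the small GTPase gene Rhou (48.6, 53.8 and 38.9 against 29.8, 28.8 and 28.9 scaled tags; edgeR adjusted p = 0.066) and inside Dlc1, which encodes a GTPase-activating protein. At Dlc1 the Ad_Cont libraries had 47.5, 45.8 and 46.4 scaled tags and the Ad_Cre libraries 29.8, 24.9 and 31.5 (log2 fold change -0.69, SE 0.148; adjusted p = 0.066). The others lay near the cytokinesis gene Cep55, the thiamine transporter gene Slc19a2, the ribosome assembly gene Gtpbp4 and the splicing gene Srrm1, and inside Zfp609, with log2 fold changes from -0.94 to -0.62. With peaks joined, Rhou, Gtpbp4 and Srrm1 went to 0.042, -0.12 and -0.078. Over these 15 regions and the 6 called ones, 18 of 21 had a log2 fold change of the same sign in the riboflavin-deficient libraries, beside 54.6% of all tested regions, and all 21 were nearer 0 there. All 21 were chosen on the riboflavin-sufficient values, so smaller values in the riboflavin-deficient libraries can follow from that choice alone. In 6 of 21 the groups did not overlap there either and lay the same way, beside 5.86% of all tested regions not overlapping in the higher and 6.15% in the lower direction.

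Outside the gene, 37880 bp from Ahr, the region chr12:35459787-35460099 had the lowest p of any region within 50 kb of an AhR pathway gene. It had 32.1, 28.9 and 32.4 scaled tags with Ad_Cont and 57.3, 45.7 and 35.9 with Ad_Cre, all Ad_Cre libraries lying above all Ad_Cont libraries (log2 fold change 0.55, SE 0.148; edgeR adjusted p = 0.222). In the riboflavin-deficient libraries the groups were apart in the opposite direction (log2 fold change -0.14). The difference between the 2 effects did not pass the threshold (edgeR adjusted p = 0.823).

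The AhR pathway list held 25 genes, and 24 had a tested region within 50 kb. Around the receptor's partners the strongest regions had similar values with either virus. The start of Arnt, the DNA-binding partner, had 98.4, 102.5 and 109.0 scaled tags with Ad_Cont and 110.3, 98.4 and 103.4 with Ad_Cre, and the groups interleaved (log2 fold change 0.01, SE 0.076). The cytoplasmic chaperone gene Hsp90ab1 had a log2 fold change of -0.03 (SE 0.099). Of the feedback inhibitors, Tiparp had 89.5, 75.7 and 77.7 scaled tags at its start with Ad_Cont and 91.5, 86.5 and 82.4 with Ad_Cre (log2 fold change 0.10, SE 0.087), with overlapping groups. The strongest region of Ahrr, 4054 bp from the gene and not at its start, had 16.2 to 22.9 against 15.4 to 23.9 (log2 fold change 0.19, SE 0.220). The Ahrr start, whose promoter is printed above, lay in a different tested region that is not described here.

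Among the classic target genes the oxidising enzymes came first. The annotated starts of Cyp1a1, Cyp1a2 and Cyp1b1 lay in no tested region, so their values are from other positions. The strongest region of Cyp1a1, at the gene's end at the lower coordinate, had 35.4, 28.9 and 42.1 scaled tags with Ad_Cont and 34.2, 33.8 and 42.9 with Ad_Cre, with no gap between groups (log2 fold change 0.08, SE 0.154). Cyp1a2 had 16.6, 16.9 and 18.4 against 19.9, 22.9 and 23.7, so the Ad_Cre libraries lay higher without passing the test (log2 fold change 0.36, SE 0.221; edgeR adjusted p = 0.715). A different region, 6993 bp from Cyp1a2, was lower with overlapping groups (log2 fold change -0.46, SE 0.233; edgeR adjusted p = 0.637). Under riboflavin deficiency that region was lower too, with groups apart (log2 fold change -0.73, SE 0.233). The region assigned to Cyp1b1, 31084 bp from the gene, had a log2 fold change of -0.08 (SE 0.106). Of the conjugation and detoxification genes, the start of Nqo1 had 47.5, 45.8 and 51.8 scaled tags against 55.1, 52.7 and 43.8 (log2 fold change 0.05, SE 0.122). Other Nqo1 regions at an unadjusted p under 0.05 went both ways. A weak site 1079 bp from the gene was higher (log2 fold change 0.73; edgeR adjusted p = 0.404), and a region inside it was lower (-0.41; 0.624). A region inside Ugt1a6a had 21.0, 22.9 and 18.4 scaled tags with Ad_Cont and 12.1, 15.9 and 12.3 with Ad_Cre, where the groups did not overlap (log2 fold change -0.63, SE 0.240; edgeR adjusted p = 0.469). The Ugt1a genes overlap one another, so this region cannot be assigned to one of them.

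Over the 24 genes, the strongest regions ran from -0.63 to 0.37 on the log2 scale with a median of 0.01, and 1 of them, at Ugt1a6a, had an unadjusted p under 0.05. Of all 181 tested regions within 50 kb of these genes, 0 passed the edgeR adjusted threshold, and 7 were higher and 12 lower at an unadjusted p under 0.05, which is 10.5% beside 7.82% of all tested regions. Several of these, both higher and lower, were assigned to a single gene, Itpr1. The median log2 fold change over the 181 was 0.02, beside 0.00 for all. A second region inside Tiparp, at chr3:65529623-65529866 and picked out after its values were seen, had 45.3, 45.8 and 45.4 scaled tags with Ad_Cont and 34.2, 30.8 and 29.8 with Ad_Cre (log2 fold change -0.53, SE 0.150; edgeR adjusted p = 0.259). Its groups were apart, while those at the Tiparp start were not.

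**Figure D4:**
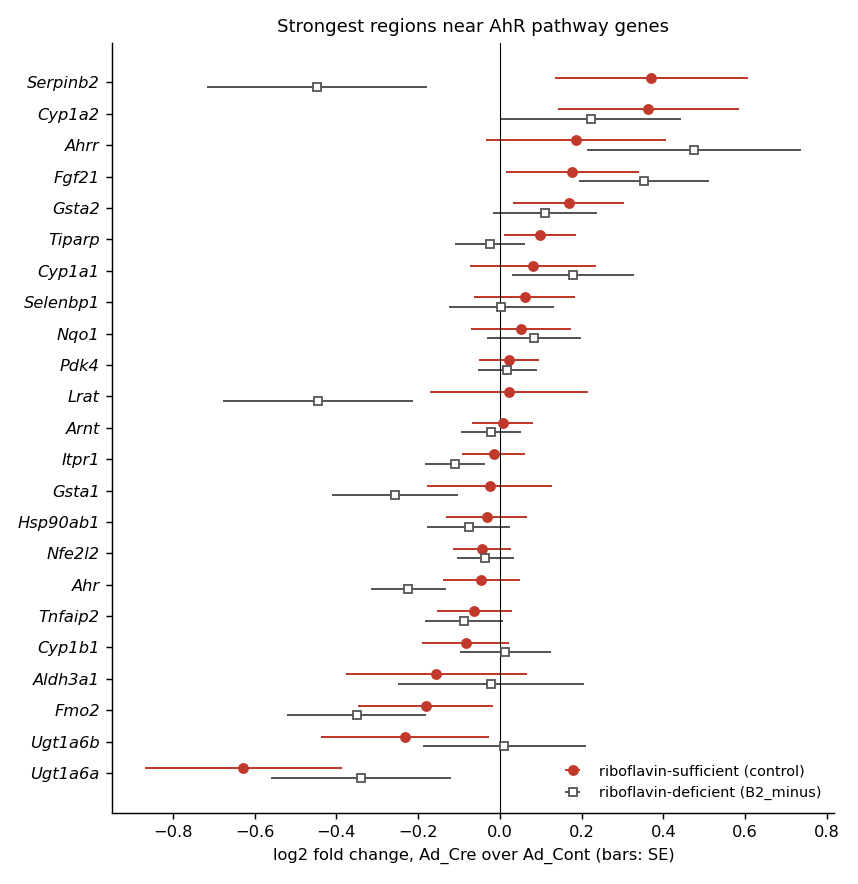
Log2 fold change (Ad_Cre over Ad_Cont, horizontal) with its SE for the strongest tested region near AhR pathway genes, in riboflavin-sufficient (filled) and riboflavin-deficient (open) hepatocytes. Riboflavin-sufficient values run from -0.63 at Ugt1a6a to 0.37 at Serpinb2, and Arnt, Nqo1 and Cyp1a1 lie within 1 SE of 0.

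Other gene lists gave shares at an unadjusted p under 0.05 from 4.93% to 10.9%, beside 7.82% of all tested regions. Cre and adenovirus can each touch innate immune and DNA damage genes, so lists for both were counted. Of 138 regions near 27 of 32 interferon and antiviral genes, 1 was called higher (Traf3) and 1 lower (Pml), and 9 were higher and 5 lower at an unadjusted p under 0.05, which is 10.1%. Traf3 and Pml were placed in that list when their results were already known, so the list lends them no support. Among its other members, a region near Rsad2, an antiviral enzyme gene, had 55.3, 44.8 and 44.3 scaled tags with Ad_Cont and 61.8, 58.7 and 66.6 with Ad_Cre, groups apart but short of the threshold (edgeR adjusted p = 0.298). A region inside Irf3, a factor that switches on interferon genes, had 61.9, 65.7 and 58.3 against 51.8, 45.7 and 52.6 (adjusted p = 0.427). Of 153 regions near p53 and DNA damage genes, 5 were higher and 5 lower (6.54%), with the lowest p near Btg2, an antiproliferative p53 target (log2 fold change -0.60; edgeR adjusted p = 0.218), which went to -0.018 with peaks joined.

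Inflammation and acute phase genes had 10 higher and 11 lower of 193 regions (10.9%). The lowest p was 6503 bp from Nfkb1, which encodes an NF-kappa-B subunit, with 16.6, 14.9 and 16.2 scaled tags with Ad_Cont and 7.72, 9.94 and 7.01 with Ad_Cre (log2 fold change -0.94, SE 0.258; edgeR adjusted p = 0.235), and the groups were apart under riboflavin deficiency too. Inside Nfkb1, chr3:135586480-135587136 went the other way, at 9.95, 8.96 and 7.56 against 15.4, 17.9 and 15.8 (log2 fold change 0.88; edgeR adjusted p = 0.281). A further region inside the gene, chr3:135690551-135691102, was lower (-0.37; edgeR adjusted p = 0.626). Hepatocyte transcription factor genes had 12 higher and 17 lower of 424 (6.84%), led by a region near Cebpa, a master regulator of hepatocyte genes, at 58.6, 61.7 and 56.1 against 44.1, 46.7 and 42.9 scaled tags (log2 fold change -0.40; edgeR adjusted p = 0.275). Nearer to Cebpa, at 1819 bp, a region was higher (0.37; edgeR adjusted p = 0.563), and at 28421 bp another was lower (-0.36; 0.517). Plasma protein genes had 7 and 9 of 236 (6.78%), cytochrome P450 and conjugation genes 9 and 7 of 186 (8.60%), and NRF2 target genes 7 and 9 of 222 (7.21%). Lipid genes had 11 and 17 of 340 (8.24%), with the lowest p inside Acadm, which encodes a flavin-dependent enzyme of fatty acid oxidation, at 25.4, 30.9 and 27.0 against 47.4, 38.8 and 44.7 (log2 fold change 0.64; edgeR adjusted p = 0.155). Its groups overlapped under riboflavin deficiency, and with peaks up to 500 bp apart joined the Acadm value turned to -0.29. A pair of other regions inside Acadm, at chr3:153932507-153932801 and chr3:153931578-153931844, were lower at an unadjusted p under 0.05 (log2 fold changes -0.28 and -0.29; edgeR adjusted p = 0.552 and 0.637).

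Genes of riboflavin and flavin cofactor metabolism had 3 higher and 3 lower of 64 regions (9.38%), led by Dmgdh, a flavin enzyme of choline breakdown (log2 fold change 0.53; edgeR adjusted p = 0.337). Immediate early genes had 6 and 4 of 203 (4.93%), led by a region near Klf4 (log2 fold change -0.43), and cell cycle genes 3 and 6 of 109 (8.26%), led by Ccnd1, or cyclin D1 (log2 fold change 0.64; edgeR adjusted p = 0.264). Beside Traf3 and Pml no region of these lists passed the adjusted threshold. List medians ran from -0.02 to 0.03.

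Marker genes were read to see which cells the libraries held. All 8 hepatocyte marker genes, such as Alb (albumin), Apob and Hnf4a, had tested regions, 107 in all, whose scaled tags summed to 2948 to 2997 with Ad_Cont and 2849 to 2935 with Ad_Cre. Kupffer cell and macrophage markers had tested regions at only 5 of 11 genes, 14 in all, and the defining genes Adgre1, Clec4f, Timd4, Vsig4, Cd5l and Lyz2 had none. Their sums were 348 to 376 with Ad_Cont and 380 to 401 with Ad_Cre. Endothelial sums were 1398 to 1471 against 1412 to 1451, stellate cell sums 941.5 to 1022 against 989.3 to 1049, bile duct sums 1951 to 1967 against 1912 to 1996, and T and B cell sums, from 3 of 8 genes, 62.7 to 88.5 against 71.6 to 89.3. The hepatocyte and Kupffer sums over regions within 50 kb thus did not overlap between groups, in opposite directions. Over regions within 10 kb both overlapped. Hepatocyte sums were then 2322 to 2416 with Ad_Cont against 2288 to 2360 with Ad_Cre, and Kupffer sums 159.8 to 180.1 against 177 to 196.3. The part of these sums in the results was not tested. Fewer cells of a type and less accessibility per cell cannot be told apart in bulk libraries.

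With TMM scaling, strong and weak sites leaned in opposite directions. In the weakest 20315 tested regions the median log2 fold change was 0.03, with 842 higher and 517 lower at an unadjusted p under 0.05, and in the strongest 20315 it was -0.02, with 526 higher and 924 lower. Of 10681 regions holding a transcription start, 245 were higher and 402 lower at that p. Of the starts past that p 37.9% were thus higher, beside 52.2% of all tested regions past it. That share rests on scaling, since it was 46.9% for starts with loess and 2.34% with listed tags as library size. With listed tags, 12.5% of all tested regions past that p were higher. Listed-tag scaling moved the median of all regions to -0.09, and the lists above moved with it. The 5 strongest tested regions all lay at chr17:39843282-39848464, near a ribosomal RNA pseudogene, where reads of many gene copies can align, and had group means of 338 to 353 against 316 to 341 scaled tags.

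Peaks listed with one virus only were mostly weak. A peak was listed in all 3 Ad_Cre libraries and in 0 Ad_Cont libraries at 2898 regions, and the reverse held at 1017. Requiring no peak of the other group within 500 bp left 1304 and 289, beside the larger peak lists of the Ad_Cre libraries. None of these isolated regions reached 15 tags in every library that listed it. The isolated peak with the highest counts, inside Ugt1a5 at chr1:88179691-88180015, had 15, 13 and 13 tags with Ad_Cre. Stronger one-sided peaks lay beside a shared one: at Tln1, which encodes talin, the Ad_Cre libraries listed 64, 72 and 72 tags at chr4:43562161-43562415, and the Ad_Cont libraries had 79, 82 and 76 tags within 500 bp. At Tmem144 a peak listed with Ad_Cre only, at chr3:79842848-79843090, had 57, 54 and 55 tags. Directly beside it, at chr3:79842571-79842842, lay a peak of 46, 51 and 49 tags listed with Ad_Cont only. Separate sites and a single site listed at different positions cannot be told apart there. Of the isolated regions, 17 were one-sided in the same way under riboflavin deficiency and 6 in the opposite way for Ad_Cre, and 6 and 1 for Ad_Cont.

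The same contrast in riboflavin-deficient hepatocytes shares no library with this one. Log2 fold changes of the 2 contrasts had a Pearson correlation of 0.16 and a Spearman correlation of 0.15 across 101575 regions, which are not independent replicates and share the regions' levels. Of 7941 regions at an unadjusted p under 0.05 with riboflavin, 5139 (64.7%) had the same sign under deficiency, beside 54.6% of all regions. Their median log2 fold changes were 0.50 for those higher and -0.44 for those lower, and 0.07 and -0.07 in the deficient libraries. These regions too were chosen on the riboflavin-sufficient values, so the smaller medians do not show a weaker effect under deficiency. In the deficient libraries 2 regions passed the adjusted threshold, and 0 passed in both conditions. The difference between the contrasts passed at 0 regions by edgeR (5221 at an unadjusted p under 0.05; smallest adjusted p 0.578), so no effect of Cre was shown to depend on riboflavin. Of the 12 libraries, principal component 2, with 10.8% of the variance, was negative in all 6 Ad_Cont and positive in all 6 Ad_Cre libraries.

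**Figure D5:**
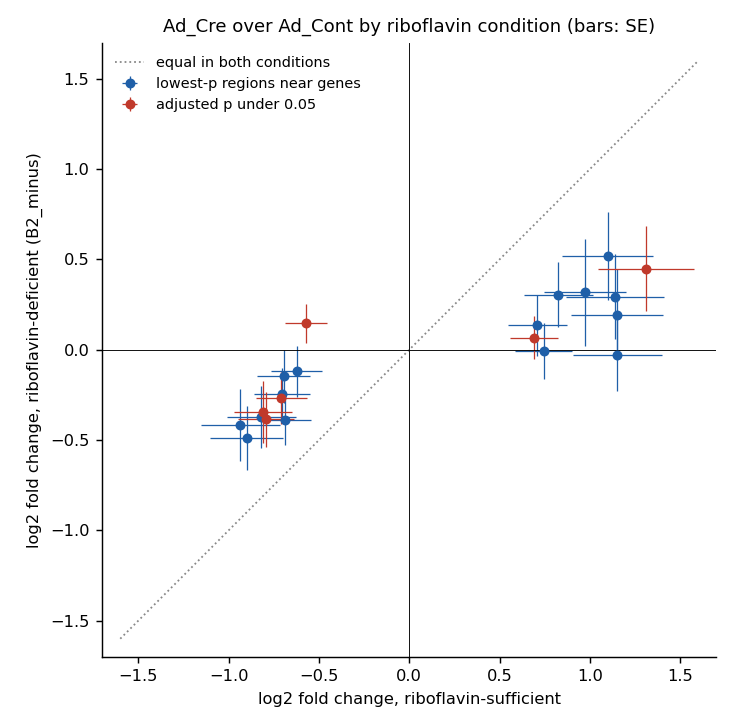
Log2 fold change (Ad_Cre over Ad_Cont) with its SE in riboflavin-deficient (vertical) against riboflavin-sufficient (horizontal) hepatocytes, for the called regions (red) and the other regions with the lowest p near genes (blue). The regions were chosen on the horizontal values, so those are far from 0 by choice, and 18 of 21 have the same sign on both axes.

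When the effect was taken as the mean over both riboflavin conditions, 97 regions passed the adjusted threshold (0.0955%), 49 higher and 48 lower with Ad_Cre, and all 97 had the same sign in each condition. They included 5 of the 6 regions called without riboflavin deficiency. The exception was the start of Ybx3, whose direction differed between conditions (edgeR adjusted p = 0.291 for the mean). The mean reuses the riboflavin-sufficient libraries that gave the 6 calls, so their return in it is no independent support. Passing in the mean also favours regions with the same sign in each condition.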

How the data were processed

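ATAC-seq peak lists of 12 mouse hepatocyte libraries were used, 3 in each of 4 groups taken from the sample titles. The submitters' processing notes name Bowtie2, HOMER and mm10, with neither versions nor roles. Read shifting, duplicate handling and peak thresholds were not given in the sources used here. The authors deposited 1 list per library, with peaks of mostly 200 bp and a column of whole-number tag counts that has no header. That these deposited counts are unscaled was inferred from the values, and a counting rule that compresses high counts could not be checked.

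Peaks overlapping by at least 1 bp were merged, and each library's highest count in a region was its value. Counts of 101575 regions with a peak in all 12 libraries were fitted in 4 groups with edgeR 4.0.16 (R 4.3.3; TMM scaling, quasi-likelihood F test, Benjamini-Hochberg adjustment over all tested regions, threshold 0.05), with Ad_Cre minus Ad_Cont in riboflavin-sufficient libraries as the main contrast. The difference and the mean of both riboflavin conditions came from the same fit. The spread between replicates was below Poisson counting noise (median quasi-dispersion 0.618). limma 3.58.1, DESeq2 1.42.0 and other settings were alternatives. The fit was tested on simulated data, where it found most changed regions but made more false calls than the adjusted threshold allows.

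Regions were assigned to the nearest protein-coding gene within 50 kb with RefSeq coordinates on GRCm38.p6. Named were the called regions, the 10 with the lowest p per direction among regions near genes whose groups did not overlap, all at Ahr, the lowest-p region of each list, the strongest of each AhR pathway gene, the strongest one-sided peaks and the 5 strongest regions. The groups, gene lists and this rule were chosen with earlier results of these data known. Same-numbered replicates deviated together hardly at all (r from 0.008 to 0.012), so they were not treated as pairs. Results for a few genes are not reported here.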

Additional observations from a re-analysis of the deposited data

How the results depend on the processing

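The 6 calls (2 higher, 4 lower) were kept with the replicate block (2 and 4; 6 of 6), which treats equal replicate numbers as pairs, and with the 6 libraries fitted alone (2 and 4; 6 of 6). Counts were 1 higher and 26 lower with listed tags as library size, 0 and 0 with loess (lowest adjusted p 0.0512), edgeR bounded at Poisson or DESeq2, 3 and 4 with limma, 2 and 0 with summed peaks, 11 and 19 with a peak in at least 3 of the 6 libraries, 35 and 27 with no filter, 4 and 9 with the 6 lists merged alone, 1 and 2 with peaks up to 500 bp apart joined, and 49 and 48 for the mean of both conditions. Joining and that mean were chosen after seeing the data. Without filter, regions with a peak in at least 1 of the 6 libraries were used, since a fit over every merged region could not be made. None of the 6 calls remained with summed peaks, with at least 3 of 6 libraries or with no filter. Leaving out 1 library gave 0 to 1 higher and 0 to 3 lower. Joined peaks reversed Pml to 0.033, Rhou to 0.042 and Acadm to -0.29; the other 5 called regions (Gm38388 at -0.24) kept their sign in all 19 alternatives, and Pml in 18. The cause of these changes was not tested. The difference between conditions stayed at 0 and 0 calls with the replicate block. One-sided peaks, 2898 for Ad_Cre and 1017 for Ad_Cont, numbered 1304 and 289 with no other peak within 500 bp, and 4528 to 10105 and 1992 to 4670 when 1 library was left out, which by construction asks fewer libraries to list or lack a peak (both chosen after seeing the data). Of 36 list counts compared at 10 kb, 4 moved by over 1.5 times. Sites below the lowest listed count of 6 to 8 tags were not measured, and regions unlisted in any library were not tested, so a complete loss of a weak site could not be called.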

Other observations

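Some regions that missed the threshold with riboflavin alone passed it when the mean of both riboflavin conditions was tested, an analysis chosen after seeing the data. A region inside Il17ra, the receptor for interleukin 17, had 46.4, 48.8 and 49.7 scaled tags with Ad_Cont and 61.8, 68.6 and 57.8 with Ad_Cre, and 52.0 to 53.7 against 65.1 to 72.5 under deficiency (mean log2 fold change 0.38, SE 0.077; edgeR adjusted p = 0.0108). Near Lect2, a hepatocyte-secreted protein gene, scaled tags were 8.64 to 12.2 against 15.8 to 22.1, and 7.36 to 8.96 against 16.3 to 17.2 under deficiency (mean log2 fold change 0.95; edgeR adjusted p = 0.00719). In both the groups were apart in each condition.

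Lower in the mean of both conditions were the regions inside Dlc1 (log2 fold change -0.54; edgeR adjusted p = 0.00608), near Nfkb1 (-0.89; 0.0108) and near Slc19a2, the thiamine transporter gene (-0.70; 0.00906). The region inside Nfkb1 that went the other way was higher in this mean without passing (0.72; edgeR adjusted p = 0.0755). A region assigned to Mup20, a major urinary protein gene of a family of near-identical copies, where reads can be shared, had 28.1 to 34.3 scaled tags against 18.8 to 21.9 with riboflavin and 24.2 to 29.5 against 16.7 to 17.2 without (-0.66; 0.022). Among all members of the 12 gene lists only Nfkb1, Pml, Cyp2e1 and Traf3 had a region called in this mean.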
